A study of Mus musculus with 3 samples.

Results

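Baat and Nr1h4 were described in mouse liver RNA against Universal Mouse Reference RNA (UMRR), a purchased mixture of cell line RNAs that serves as a common standard. The members were the probes whose only gene symbol in the platform annotation was Baat or Nr1h4. These were 2 probes of 16273 on the array, 1 for each gene, and both carried a ratio on all 3 arrays. The genes were picked with their ratios known, so their values are given as a description and were not tested. Liver total RNA, purchased as 1 catalogue product, was labelled with Cy5 and purchased UMRR with Cy3 on each of 3 arrays. The labels give no strain, age, sex or number of animals for the liver, and every array had the same dye orientation, so any dye effect is part of each ratio. The arrays repeat 1 pair of RNAs, so the spread given below, and every p-value, covers repeated arrays, can be technical and leaves out the variation between livers.

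Baat is the liver enzyme that joins bile acids to taurine or glycine, the last step before they are secreted into bile. In mice taurine is the main partner. Nr1h4 encodes FXR, the nuclear receptor that binds bile acids. FXR pairs with RXR, lowers bile acid synthesis through the repressor Nr0b2 (SHP) and raises genes of conjugation and export. It is found in liver, ileum, kidney and adrenal gland, and Baat is known as one of its targets.

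The deposited values are signed log ratios with neither base nor direction stated. They were read as log2 of liver over UMRR, and an exact 0 was read as no measured ratio. The direction was taken from hepatocyte secretory genes, of which 8 of 18 were among the named probes and 4 had a ratio on all 3 arrays. The 4 were Apoc3, Ambp, Rbp4 and Vtn, all above 0 on every array, with means from 4.01 to 5.17. A ratio on every array was found for 9910 probes and, after averaging probes of 1 symbol, for 5520 genes. The median over these genes was -0.028. The signal of each dye was not used here, so a ratio says nothing of how bright either probe was.

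Baat stood at a log2 ratio of 5.98 on array 1, 6.13 on array 2 and 6.12 on array 3. The mean was 6.08 ± 0.083 (SD, n = 3 arrays), or 67.6-fold higher in liver, with single arrays between 63.3-fold and 70.0-fold. It was the second highest gene on each array and by its mean, rank 2 of 5520 genes. Only Aadac, a deacetylase of the endoplasmic reticulum, was above it on each array, by 0.13 on array 1, 0.058 on array 2 and 0.00020 on array 3. The order of Aadac and Baat on array 3 thus rested on a gap far smaller than the SD of either gene. Below Baat came Reg2 at 5.55 ± 0.14, a gene of the exocrine pancreas, and its highest array (5.65) did not reach the lowest array of Baat.

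Nr1h4 stood at 3.52 on array 1, 4.30 on array 2 and 3.71 on array 3. Its mean was 3.84 ± 0.41 (SD, n = 3 arrays), or 14.3-fold higher in liver, with single arrays between 11.5-fold and 19.7-fold. Its rank was 65 of 5520 genes by the mean, and 70, 51 and 71 on arrays 1, 2 and 3. Next to it in rank were Pecr, a peroxisomal reductase (3.86 ± 0.072), and Cyb5a, an electron carrier (3.83 ± 0.078). Both lay within the range of Nr1h4 across the arrays, so the order of these 3 genes is not settled by these values. Among all 9910 measured probes, named or not, Baat was at rank 2 and Nr1h4 at rank 141.

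**Figure D1:**
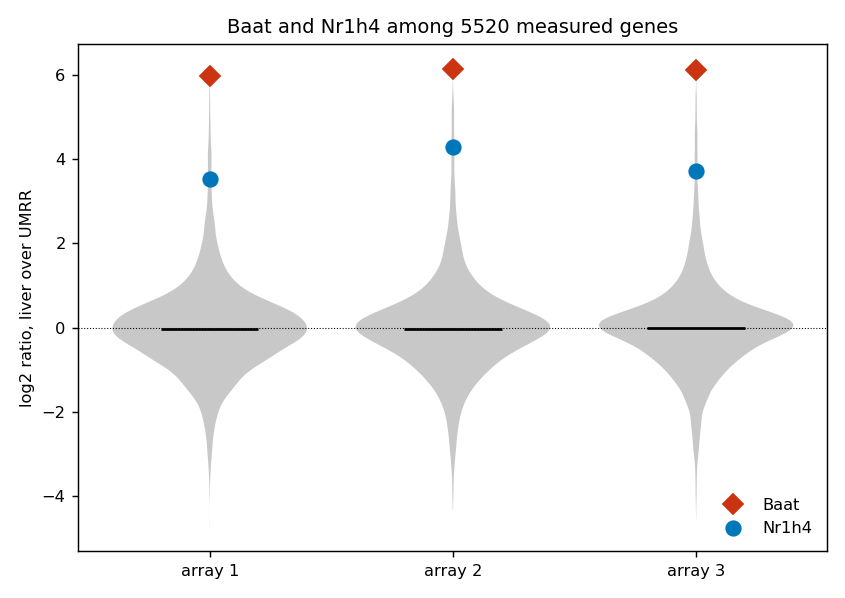
Log2 ratios of liver over UMRR for Baat (diamonds) and Nr1h4 (circles) on each of 3 arrays, over the distribution of all 5520 measured genes (grey, with a bar at the median). Baat lies at the upper end of each distribution (5.98 to 6.13), and Nr1h4 lies lower and varies more between arrays (3.52 to 4.30).

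The spread between arrays differed for the 2 genes. The median SD over all genes was 0.17, and 17.4% of genes had an SD at or below that of Baat against 91.3% for Nr1h4. Among the 110 genes with a mean of at least 3, the median SD was 0.23, and 18 had an SD at least as large as that of Nr1h4, itself included. From array 1 to array 2 Nr1h4 differed by 0.78 and Baat by 0.15, where the median of those 110 genes was 0.39. Array 2 was above array 1 for 89 of the 110. Nr1h4 and Baat were both lowest on array 1 and highest on array 2, an order shared by 52 of the 110 genes (47.3%) and by 22.5% of all 5520. For Baat, array 2 was above array 3 by only 0.0056, far less than its SD, so its order of these arrays is not settled. The difference of the log2 ratios, Baat minus Nr1h4, was 2.47, 1.83 and 2.42 on arrays 1, 2 and 3. This is a difference of ratios between both RNAs and does not compare the amounts of the 2 transcripts within liver.

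The genes most like each member were taken as the 5 with the smallest root mean square difference of log2 ratios over the 3 arrays. For Baat they were Aadac (difference 0.080), Reg2 (0.53), C8g (0.64), Sult1d1 (0.70) and Mtarc1 (0.70). C8g is a complement subunit, Sult1d1 a sulfotransferase and Mtarc1 a mitochondrial reductase. No gene other than Aadac came within 0.5 of Baat. For Nr1h4 they were Ugt2b37, a glucuronosyltransferase (0.14), Cpb1, a pancreatic carboxypeptidase (0.17), Plin5, a lipid droplet protein (0.20), and the plasma protein genes Rbp4 (0.22) and Ambp (0.23). Ugt2b37 had the same order of arrays 1 and 2 at 3.59 and 4.23, with array 3 at 3.48. Rbp4 and Ambp also served to set the direction of the ratios.

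**Figure D2:**
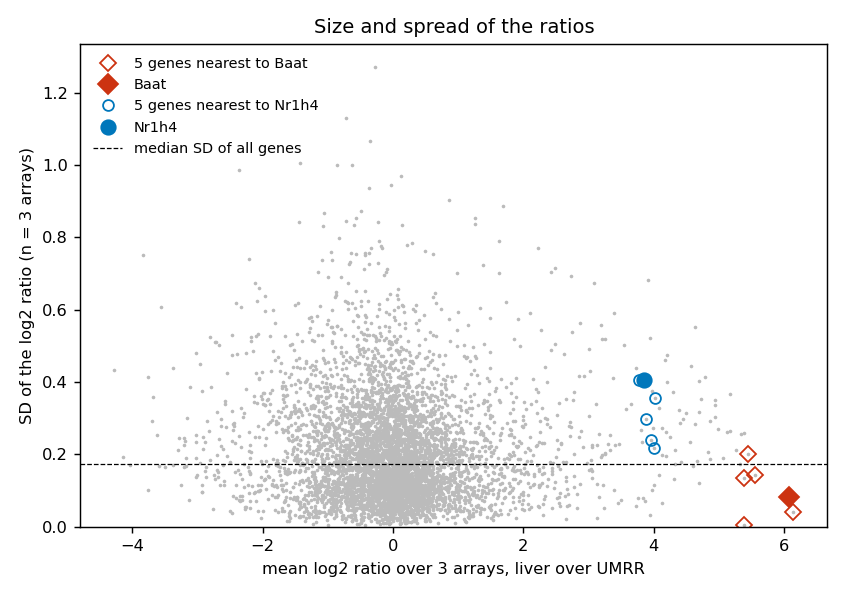
SD of the log2 ratio over 3 arrays against its mean for 5520 genes (grey points), with Baat (filled diamond), Nr1h4 (filled circle) and the 5 genes nearest to each (open symbols). Baat combines a mean of 6.08 with an SD of 0.083, below the median SD of all genes (dashed, 0.17), while the SD of Nr1h4 is 0.41.

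For the promoter sequences, 34 of the 43 genes named by the rule had an entry in the RefSeq table (GRCm38.p6), Nr1h4 among them. The 250 bases before the start are shown for Nr1h4 and for Nr0b2, a known FXR target, since both genes were higher in liver on every array. The Nr1h4 window is chr10:89506659-89506908 on the minus strand and the Nr0b2 window is chr4:133553126-133553375 on the plus strand. Capitals mark matches to the motifs of at least 6 letters among those listed after the sequences.
Nr1h4: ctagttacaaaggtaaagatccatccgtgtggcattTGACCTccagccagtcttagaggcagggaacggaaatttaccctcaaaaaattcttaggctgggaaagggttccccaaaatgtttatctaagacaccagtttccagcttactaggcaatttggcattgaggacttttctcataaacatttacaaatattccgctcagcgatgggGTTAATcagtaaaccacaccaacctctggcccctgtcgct
Nr0b2: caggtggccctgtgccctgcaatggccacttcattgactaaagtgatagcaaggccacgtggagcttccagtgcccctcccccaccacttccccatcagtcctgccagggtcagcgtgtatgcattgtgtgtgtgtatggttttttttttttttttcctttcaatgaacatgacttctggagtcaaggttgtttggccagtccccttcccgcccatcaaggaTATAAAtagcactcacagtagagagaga

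The motifs were searched on both strands and counted over 32851 windows of the same length. The nuclear receptor half-site AGGTCA was found in 14.0% of them, and in the Nr1h4 window as TGACCT at -214 to -209 from the start. The HNF1 half-site GTTAAT was found in 6.43%, and in the Nr1h4 window at -40 to -35. The TATA box TATAAA was found in 12.4%, and in the Nr0b2 window at -28 to -23. The other motifs searched were the FXR inverted repeat (the half-site, any 1 base, then its reverse complement, so that each match holds the half-site), in 0.00609% of windows, the HNF4A core CAAAGTCCA in 0.384%, the FOXA core GTAAACA in 3.17% and CCAAT in 33.8%. These letters were in neither of the 2 windows shown. Of the 34 genes, 8 had the half-site, 3 the HNF1 half-site, 5 the FOXA core, 7 the TATA box and 15 CCAAT. The FXR inverted repeat and the HNF4A core were found in 0 of them. These exact letters of the repeat were in only 2 of the 32851 windows, so nothing on FXR sites is read from the 0. A gene was counted where any of its windows matched, and some genes had more than 1 window. These counts are thus not comparable with the shares, which are of single windows. A match is a run of letters and not a measured binding site.

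The other genes of the pathway were taken from 10 lists, and a gene was called where limma's moderated test against a ratio of 1 gave a Benjamini-Hochberg adjusted p under 0.05 over all 5520 genes. Leaving out Baat and Nr1h4, these lists hold 197 genes, of which 55 were among the named probes and 32 had a ratio on all 3 arrays. Of the 32, 20 were higher in liver and 5 lower, while 7 did not pass. Their median log2 ratio was 0.65. Over all genes 64.0% passed, 30.1% higher and 33.9% lower, and 9.46% were at least 2-fold higher on every array. Baat and Nr1h4 belong to these last by their choice, from which nothing is read. The lists were written with earlier results of these data known, so the counts describe them and give no independent support.

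Few genes of bile acid synthesis were measured. Of 15 listed, 5 were among the named probes and 2 had a ratio on all 3 arrays. Amacr, which turns the side chain of bile acid intermediates into the form that peroxisomes can shorten, was higher at 1.08, 1.18 and 1.06 on arrays 1, 2 and 3. Its mean was 1.10 ± 0.065, or 2.15-fold (SD, n = 3; limma adjusted p = 0.000113). Scp2, whose longer product is the thiolase of side chain shortening, was lower at -1.46, -1.07 and -1.14, with a mean of -1.23 ± 0.21 and an adjusted p of 0.000178 in limma. Neither was called in limma's test against a 2-fold difference (adjusted p = 0.722 for Amacr and 0.257 for Scp2).

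The probes of Scp2 did not run the same way. The 4 with ratios on all arrays had means from -1.51 to -0.97, while another probe stood at 3.77 on array 1 and 3.88 on array 2 with no ratio on array 3. The last probe had no ratio on any array. When probes with ratios on 2 arrays were let in, Scp2 stood at -0.55 and was not called (limma adjusted p = 0.0667), and without array 3 it stood at -0.25 (adjusted p = 0.294). Cyp7b1, the oxysterol hydroxylase of the alternative route, had a ratio on array 1 alone (1.91). Cyp2c70, which makes the muricholic acids of mice, had 0.52 on array 2 and 0.51 on array 3. Hsd17b4, a peroxisomal enzyme of the side chain, had no ratio on any array.

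Of the genes that prepare or release bile acids for conjugation (Slc27a5, Slc27a2 and Acot8), none was among the named probes, so Baat alone stood for conjugation. The supply of taurine and glycine was better covered, with 4 genes measured on all arrays, 3 of them higher. Cdo1, the dioxygenase that starts taurine synthesis from cysteine, stood at 3.86, 3.97 and 4.07. Its mean of 3.97 ± 0.10, or 15.7-fold, placed it at rank 58, close to Nr1h4 (limma adjusted p = 2.16e-06). Shmt1, which makes glycine from serine in the cytosol, stood at 2.31, 2.64 and 2.75, a mean of 2.57 ± 0.23 or 5.93-fold. Its mitochondrial counterpart Shmt2 stood at 0.54, 0.90 and 0.90, a mean of 0.78 ± 0.21 or 1.72-fold. Shmt2 was not called without moderation of the variance (adjusted p = 0.0557) or in limma's test against a 2-fold difference (adjusted p = 1), which leaves 2 of the 4 genes called higher in each. The ranges of these 2 enzymes across the arrays did not overlap. The glycine transporter Slc6a9 stood at -0.054, 0.70 and 0.48 and was not called (limma adjusted p = 0.0773). It was called at 0.59 without array 1 (adjusted p = 0.00161) and, on all arrays, once the noisiest probes were left out (adjusted p = 0.0462). Cth, which makes cysteine, stood at 2.84 on array 1 and 2.89 on array 3. Where an exact 0 was taken as a true ratio of 1, Cdo1 stood at 2.58 and lost its call (adjusted p = 0.0665), since a further probe with a ratio on array 1 alone then entered.

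Of 18 transport genes, 4 were among the named probes and 3 were measured on all arrays, 2 of them higher. Abcg8, a subunit of the sterol exporter of the canalicular membrane, stood at 2.62, 3.63 and 3.35, a mean of 3.20 ± 0.52 or 9.21-fold (limma adjusted p = 3.14e-05). Abcc3, an exporter of the basolateral membrane, stood at 2.75, 3.43 and 3.14, a mean of 3.11 ± 0.34 or 8.61-fold (limma adjusted p = 1.13e-05). Like Nr1h4, both were lowest on array 1 and highest on array 2. Abcb1a, a multidrug exporter, stood at 0.54, 0.18 and 0.089 and did not pass. Slco1b2, an uptake carrier of hepatocytes, had no ratio on any array.

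**Figure D3:**
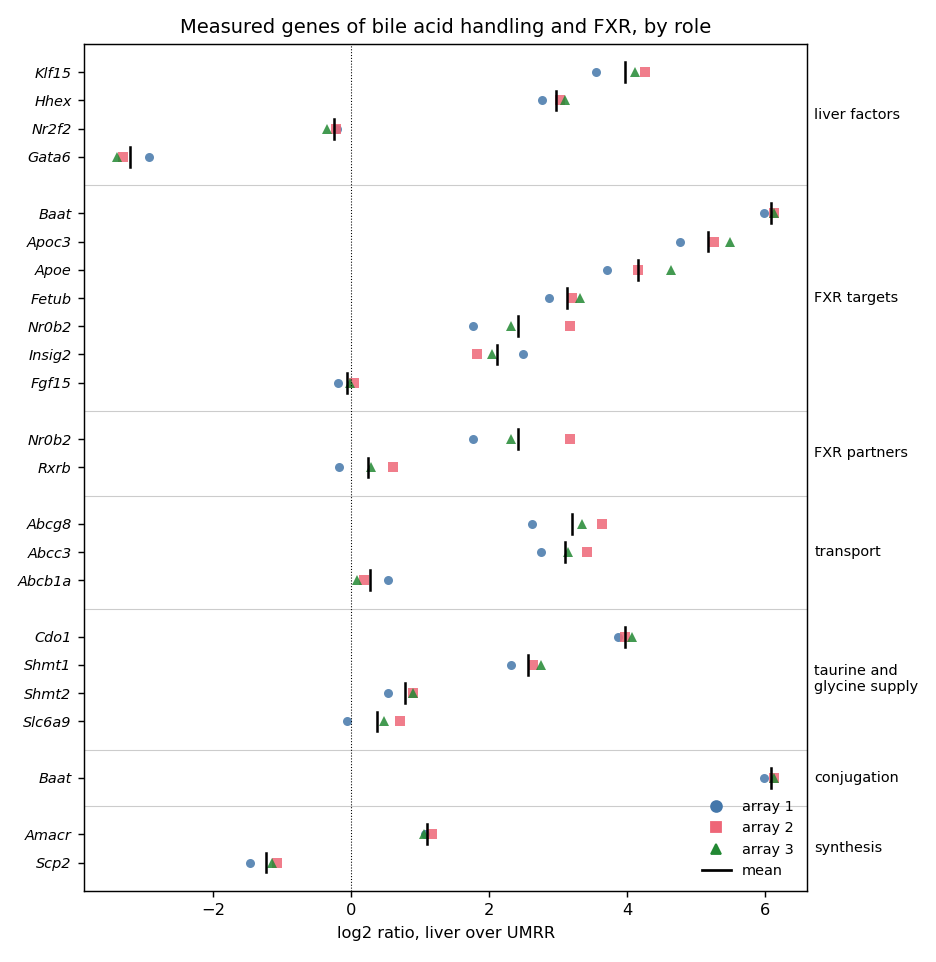
Log2 ratios of liver over UMRR on 3 arrays (symbols) with their mean (black bar) for the measured genes of bile acid handling and FXR, grouped by role; Baat and Nr0b2 appear under both of their roles. Baat lies farthest to the right (6.08), most transport and target genes lie between 2 and 6, and Scp2 (-1.23) and Gata6 (-3.20) lie on the UMRR side.

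FXR works with a partner and cofactors, and 2 of the 22 listed had a ratio on all arrays. Nr0b2, the repressor SHP, which FXR is known to raise, stood at 1.77, 3.17 and 2.32. Its mean was 2.42 ± 0.70 or 5.36-fold (limma adjusted p = 0.000279), and its spread between arrays was larger than that of Nr1h4. Without moderation of the variance Nr0b2 was not called (adjusted p = 0.0622). Rxrb, a heterodimer partner, stood at -0.17, 0.61 and 0.28 and was not called (limma adjusted p = 0.220), but it was called at 0.45 without array 1 (adjusted p = 0.00905). Rxra, the main RXR of liver, and the coactivator subunit Med1 had no ratio on any array. The coactivator Ncoa3 had ratios on arrays 1 and 2 only, between -0.49 and -0.0015 over 2 probes.

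Of the 28 known targets and genes of the FGF15 axis, 6 besides Baat were measured on all arrays and 5 of them were higher, with a median of 2.77 over the 6. Among the 5 was Nr0b2 at 2.42, which is also counted with the FXR partners and the nuclear receptors. Apoc3, an apolipoprotein that FXR is known to lower, stood at 4.77, 5.25 and 5.50, a mean of 5.17 ± 0.37. It is also one of the genes that set the direction. Apoe, a lipoprotein ligand, stood at 3.71, 4.15 and 4.63, a mean of 4.16 ± 0.46 or 17.9-fold. Fetub, a secreted protease inhibitor, stood at 2.87, 3.20 and 3.31, a mean of 3.13 ± 0.23, over 2 probes with means of 2.27 and 3.98. Insig2, which holds back sterol synthesis, ran the other way across arrays than Nr1h4, highest on array 1 (2.49) and lowest on array 2 (1.83), with 2.04 on array 3 and a mean of 2.12 ± 0.34. In limma these 4 genes had adjusted p-values between 3.43e-06 for Apoc3 and 4.92e-05 for Insig2. Fgf15, the hormone by which the ileum signals to liver after FXR activation, stood at -0.18, 0.045 and -0.020 and was not called (limma adjusted p = 0.656). Fgb, the beta chain of fibrinogen, had 4.74 on array 1 and 4.90 on array 3 on one probe and 2.29 on array 3 on another.

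Of 16 transcription factors of hepatocytes, 4 were measured on all arrays. Klf15, a regulator of fasting metabolism, stood at 3.55, 4.25 and 4.12, a mean of 3.97 ± 0.38, and Hhex, a factor of liver and bile duct development, at 2.77, 3.03 and 3.10, a mean of 2.97 ± 0.18. Gata6, an endoderm factor, was lower at -2.92, -3.30 and -3.39, a mean of -3.20 ± 0.25 or 9.22-fold. In limma these 3 genes had adjusted p-values between 5.37e-06 for Hhex and 6.31e-06 for Klf15. Nr2f2, an orphan receptor, stood at -0.19, -0.22 and -0.35 and was not called (limma adjusted p = 0.0540). It was called at -0.28 without array 1 (adjusted p = 0.0244) and, on all arrays, once the noisiest probes were left out (adjusted p = 0.0435). Foxa3 had no ratio on any array.

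Nr1h4 belongs to the nuclear receptors, of which 15 of 49 listed were among the named probes and 9 had a ratio on all arrays. Nr1h4 was the highest of the 9, followed by Nr0b2 at 2.42 and Esrra, a receptor of energy metabolism, at 0.49 ± 0.10. Besides Nr1h4, 3 of 8 were higher and 2 lower, while 3 did not pass. Their median was 0.089. The third of the higher ones was Nr6a1 at 0.42 ± 0.29, named after its value was seen. The lower ones were the retinoic acid receptors Rarg at -1.56 ± 0.42 and Rara at -1.39 ± 0.51 (SD, n = 3; limma adjusted p = 0.000325 and 0.00103). Neither was called without moderation of the variance (adjusted p = 0.0573 and 0.0823) or against a 2-fold difference (0.0501 and 0.243), and Rara was not called with exact zeros kept (0.0622). Without array 1, 5 of 9 were higher and 4 lower, where over all 5992 genes then tested 1948 were higher and 2236 lower. Without array 3, 1 of 8 was higher, where over all genes 1313 of 5745 were. Esrra then stood at 0.34 and was not called (limma adjusted p = 0.143). A further probe of Esrra, at 0.38 on array 1 and 0.10 on array 2 with no ratio on array 3, entered its mean there. Nr1i2, the xenobiotic receptor PXR, had ratios on array 2 alone, 4.16 on one probe and 0.64 on the other.

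Baat was listed with acyl-CoA thioesterases and acyltransferases, a list made by activity and not by descent. Of the 18 listed, 3 were measured on all arrays. The Baat relatives Acnat1 and Acnat2 were listed but were not among the named probes. Acot9 and Them5, the other measured genes, are thus not set beside Baat as its relatives. Acot9, a mitochondrial thioesterase, was lower at -2.24, -2.71 and -2.72, a mean of -2.56 ± 0.27 or 5.89-fold (SD, n = 3; limma adjusted p = 1.54e-05). With exact zeros kept it stood at -1.59 and lost its call (adjusted p = 0.0669). Them5, another mitochondrial thioesterase, stood at 0.086, 0.32 and 0.39 and was not called (limma adjusted p = 0.0631). It was called at 0.36 without array 1 (adjusted p = 0.00823) and, on all arrays, once the noisiest probes were left out (adjusted p = 0.0471). Baat acts in part in peroxisomes, and 5 of 5 measured genes of the peroxisome list were higher, with a median of 0.69. This list leaves out the genes of side chain shortening, which were listed under synthesis. Of these, Amacr was higher (1.10) and Scp2 was lower (-1.23), with probes that did not run the same way for Scp2. Pecr, which reduces fatty acyl chains, stood at 3.83, 3.82 and 3.95, a mean of 3.86 ± 0.072 or 14.6-fold, and Pxmp4, a membrane protein, at 1.38, 2.04 and 2.00, a mean of 1.81 ± 0.37. The import and division genes were nearer to 0, with Pex19 at 0.69 ± 0.17, Pex11g at 0.61 ± 0.057 and Pex3 at 0.51 ± 0.14. A further probe of Pex3 stood at -1.64 on array 2 alone. A further probe of Pex19 stood higher, at 1.47 on array 2 and 1.22 on array 3, with no ratio on array 1. Hacl1, a peroxisomal lyase, had 4.32 and 4.55 on arrays 1 and 2 and no ratio on array 3. With exact zeros kept, 2 of 10 peroxisomal genes were higher, and Pex3, Pex19 and Pxmp4 lost their calls (limma adjusted p = 0.246, 0.137 and 0.0631). Over all genes in that setting, 1162 of 7984 were higher. Of the 5 genes, 3 were called without moderation of the variance and 2 in a test against a 2-fold difference.

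**Figure D4:**
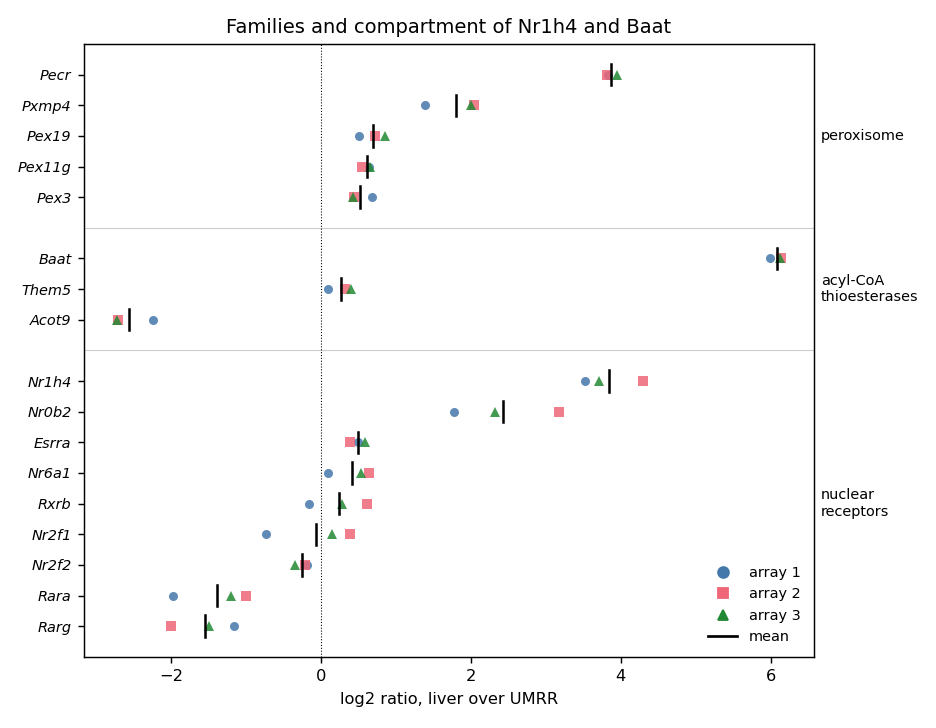
Log2 ratios of liver over UMRR on 3 arrays (symbols) with their mean (black bar) for the measured nuclear receptors, acyl-CoA thioesterases and peroxisomal genes. Nr1h4 (3.84) lies to the right of the other measured receptors and Baat (6.08) to the right of Acot9 (-2.56) and Them5 (0.27). The 5 genes of the peroxisome list, which leaves out Scp2, all lie above 0.

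Markers of other cells that the liver RNA could hold were set beside these values. Genes of pancreatic acinar cells were above 0 on every array for 9 of 9 measured, and 8 were called higher, with means from 0.22 to 5.55 and a median of 4.30. In the measure of likeness Reg2 came after Aadac for Baat, and Cpb1 after Ugt2b37 for Nr1h4. Reg2 and Cpb1 are genes of the exocrine pancreas. The part of pancreatic RNA in the ratios of Baat and Nr1h4 was not tested. Of the ileal markers, which mark another tissue with FXR, Fgf15 alone was measured (-0.053), and both probes of Fabp2 had no ratio on any array. No kidney tubule marker had a ratio on every array. The bile duct marker Sox9 was lower in liver (-1.28), the Kupffer cell gene Slc40a1 was higher (between 3.91 and 4.13 on the arrays), and of 3 measured stellate genes 2 were higher and 1 lower. Eng, of the endothelium, was higher (1.63) and Ramp2 was not called (0.16). In such bulk RNA, a larger share of cells of a type and more RNA per cell cannot be told apart.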

How the data were processed

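The deposited table holds 1 signed log ratio per probe and array (3 arrays), as processed by the authors and read here as log2. Scanner, background correction, dye normalization, filters, log base and genome build: not given in the sources used here. The size of the values led to the assumption of base 2, and natural logs would give larger ratios. Exact zeros (32.2%, 23.5% and 29.6% of values on arrays 1, 2 and 3) were read as no measured ratio. Probes were named from the platform annotation (12336 with 1 symbol, 61 with several, 3876 unnamed here); 12228 of the 12336 matched the RefSeq gene table (GRCm38.p6, names and gene order only), and 0 symbols changed. Probes with ratios on all 3 arrays were averaged per symbol. The mean ratio of each gene was tested against 0 in limma 3.58.1 (lmFit, eBayes; R 4.3.3), two-sided, at a Benjamini-Hochberg adjusted p of 0.05, after a check on simulated data. Figures were drawn with matplotlib 3.10.9. Precision is limited by the number of arrays.

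The members, lists and tests were chosen with earlier results of these data known. The rule for named genes took both members, every measured gene of 7 lists (synthesis, conjugation, amino acid supply, transport, FXR targets, FXR partners, liver factors), the 3 highest and 3 lowest of nuclear receptors, thioesterases and peroxisomal genes, the 5 genes nearest to each member and its neighbours in rank. Genes with ratios on some arrays only, marker genes, Nr6a1 and genomic neighbours were named outside it. Alternatives changed the centring and scaling, the treatment of zeros, the probes per gene, the filter on noisy probes, the arrays used, the variance moderation and the threshold.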

Additional observations from a re-analysis of the deposited data

How the results depend on the processing

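Baat kept rank 2 in every setting run, at log2 ratios from 6.05 to 6.13 with 1 array left out. Nr1h4 then lay between 3.61 and 4.003, at ranks from 65 to 71. Over every setting run its rank lay between 54, with zeros kept, and 74, with probes on at least 2 arrays. Read as natural logs, the values would be 8.77 for Baat and 5.54 for Nr1h4 on the log2 scale. Each ratio already sets liver against UMRR on the same array, and the arrays form 1 group, so no further pairing was used. Counts below come from the limma fit; those of lists leave out both members, and those of all genes include them.

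With 1 array left out, genes higher in liver numbered 1313 to 1948 and genes lower 1525 to 2236, of 5643 to 5992 tested. Synthesis had 1 to 2 higher and 0 to 1 lower, FXR partners 1 to 2 higher, liver factors 1 to 2 lower, nuclear receptors 1 to 5 higher and 2 to 4 lower, and thioesterases 0 to 1 higher. The high ends came without array 1, and the low ends of synthesis and nuclear receptors without array 3. With probes on at least 2 arrays, 6329 genes were tested, of which 1758 were higher and 2019 lower. Synthesis then had 2 of 3 higher and 0 of 3 lower, as Cyp2c70 entered and Scp2 took in a further probe. With zeros kept, 7984 genes were tested, of which 1162 were higher and 1229 lower. Synthesis then had 0 of 5 lower, nuclear receptors 1 of 14, thioesterases 0 of 3, and the peroxisome 2 of 10 higher. Without the noisiest probes, 5303 genes were tested, of which 1710 were higher and 1866 lower. Transport then had 1 of 2 higher, FXR partners 0 of 1 and thioesterases 1 of 2, and liver factors had 2 of 4 lower. Abcg8 and Nr0b2 were not among the genes tested in that setting, so they did not lose a call. Without moderation of the variance, 1033 genes were higher and 1054 lower, with FXR partners at 0 higher, nuclear receptors at 1 higher and 0 lower, and the peroxisome at 3 higher. Against a 2-fold difference, 426 were higher and 390 lower, with synthesis at 0 and 0, nuclear receptors at 1 and 0, and the peroxisome at 2 higher. The cause was not tested, beyond the change in probes and arrays entered. Of the named genes besides the members, 26 comparisons lost a call, 7 gained one and none turned its sign with a call.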

Other observations

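The genes that lie next to Baat and Nr1h4 in the order of protein-coding genes of GRCm38.p6 were looked up, with 5 on each side. Of the 10 around Baat on chromosome 4, 2 were measured on all arrays. Cavin4, of muscle caveolae, stood at -0.063 ± 0.16 (SD, n = 3) and Pgap4, of GPI anchor processing, at -0.028 ± 0.081, and neither was called in the limma fit (adjusted p = 0.624 and 0.811). The Baat relatives Acnat1 and Acnat2, both among the 10, were not among the named probes. Of the 10 around Nr1h4 on chromosome 10, 3 were measured. Utp20, of ribosome assembly, was lower in liver at -0.82 ± 0.074 (limma adjusted p = 0.000427). Arl1, a small GTPase of the Golgi, stood at -0.21 ± 0.52, and Uhrf1bp1l stood at 0.13 ± 0.46. Neither was called (limma adjusted p = 0.369 and 0.553). These genes were chosen after the values of the members were known.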
